A study of Oryza sativa with 15 samples.

Results

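Regions of the rice genome that the authors listed as differing in methylation from the wild type, both in SDWT and in CK plants, were compared between these 2 lines. The members are the 207 regions that have identical chromosome, start, end and sequence context in the authors' list of differentially methylated regions (DMRs) of SDWT and in that of CK. They are 7.58% of the 2731 regions of the SDWT list and 4.04% of the 5122 regions of the CK list, and the lists of all 3 lines of the series hold 11392 regions. Both lists were made against the same 3 wild-type libraries, so the difference of each line from the wild type chose the members, and the values of these contrasts are given as a description without a test. SDWT was set directly against CK, and the wild type serves as a level of reference.

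SDWT (FP in the sample labels) is a T4 wild-type line without the transgene, which segregated from the progeny of a T0 plant heterozygous for the pOsNAR2.1-OsNAR2.1 construct. It therefore passed through callus induction, transformation, hygromycin selection, regeneration and several rounds of selfing, and it is a single line. CK plants are T0 plants regenerated from callus without a construct, and the libraries came from independent calli. The wild type is WYJ7 (Oryza sativa ssp. japonica, wuyujing 7 in the labels), the background of both lines. Whole-genome bisulfite sequencing (WGBS) was done on shoot DNA of 10-day-old seedlings, with 3 libraries per group. SDWT and WYJ7 were germinated in water, whereas CK was moved to water from root medium, so that generation, selection and growth cannot be told apart in a comparison of SDWT with CK.

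In WGBS, bisulfite converts unmethylated cytosines and leaves methylated ones, and the level of a region is the mean percentage of methylated reads over its cytosines. In plants, CpG methylation is copied to the new strand after replication by the maintenance enzyme MET1 and can pass through meiosis, whereas non-CpG methylation is set again by chromomethylases and by the RNA-directed pathway. Culture of callus is known to lose and gain methylation at many sites, and part of these changes stay in regenerated plants and in their progeny.

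All 207 regions were in CpG context, although the SDWT list held 16 and the CK list 160 regions in CpH (non-CpG) context. They were short, with widths of 5 to 70 bp and a median of 17 bp, against medians of 20 bp in the whole SDWT list and 29 bp in the CK list. The number of CpGs per region, taken as the smaller of the 2 lists' counts, ran from 3 to 8 (median 3), and 107 regions had exactly 3. The regions lay on all 12 chromosomes, with 11 on chromosome 8 and 27 on chromosome 7 as the extremes, and covered 4047 bp in total. In the authors' annotation 90 regions (43.5%) were upstream of a gene, 12 in introns, 10 in exons and 95 (45.9%) at no gene. The upstream share was 45.3% in the whole SDWT list and 41.8% in the CK list. The 112 annotated regions belonged to 112 different genes, 72 with an OS identifier and 40 with an EPlOSAG identifier. The lists give identifiers without product names, and none of the 72 OS identifiers matched the gene table used here, so genes are named by identifier and no role is given.

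The lists do not give the number of reads over a region, and counting error could not be computed. WYJ7 levels were equal in both lists in all 207 regions, so both lines were set against the same reference values. This does not show that the levels of SDWT and CK are free of differences between libraries. In 19 regions the lists gave different numbers of CpGs for the same coordinates. In the members CK-2 stood apart from CK-1 and CK-3. It was the only library at least 20 percentage points from the median of its group in 40 regions (19.3%), with the other libraries within 10 points of it, against 4 regions for CK-1 and 9 for CK-3. In the whole CK list the shares were 24.2% for CK-2, 3.12% for CK-1 and 3.79% for CK-3. By the same count SDWT-2 stood alone in 16 regions (7.73%), against 8 each for SDWT-1 and SDWT-3. WYJ7-1, which enters every direction given below, stood alone in 22 regions (10.6%), against 9 each for WYJ7-2 and WYJ7-3. The main counts that use CK are therefore also given without CK-2.

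Relative to WYJ7, the mean level was higher in both lines in 88 regions (42.5%) and lower in both lines in 83 regions (40.1%). It was higher in SDWT and lower in CK in 21 regions, and lower in SDWT and higher in CK in 14. The remaining region, chr8:19650181-19650210 of IRGSP-1.0, was listed at 0% in all 9 libraries, and so gave no direction although it is in both lists. The direction was thus the same in 171 regions (82.6%) and opposite in 35 (16.9%). Both lists share the WYJ7 libraries, so this share is not read as a likeness of the lines. In the 168 pairs of DMRs that overlapped by at least 1 bp without being identical, the direction was the same in 82.1%. In these pairs the level of each line was that of its own interval, and a DMR could be in more than 1 pair. Without CK-2, 8 regions changed their direction, and the counts were 84 higher in both, 83 lower in both, 23 higher only in SDWT, 14 higher only in CK and 3 without a direction. Without WYJ7-1 the share of common direction was 83.6%.

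**Figure D1:**
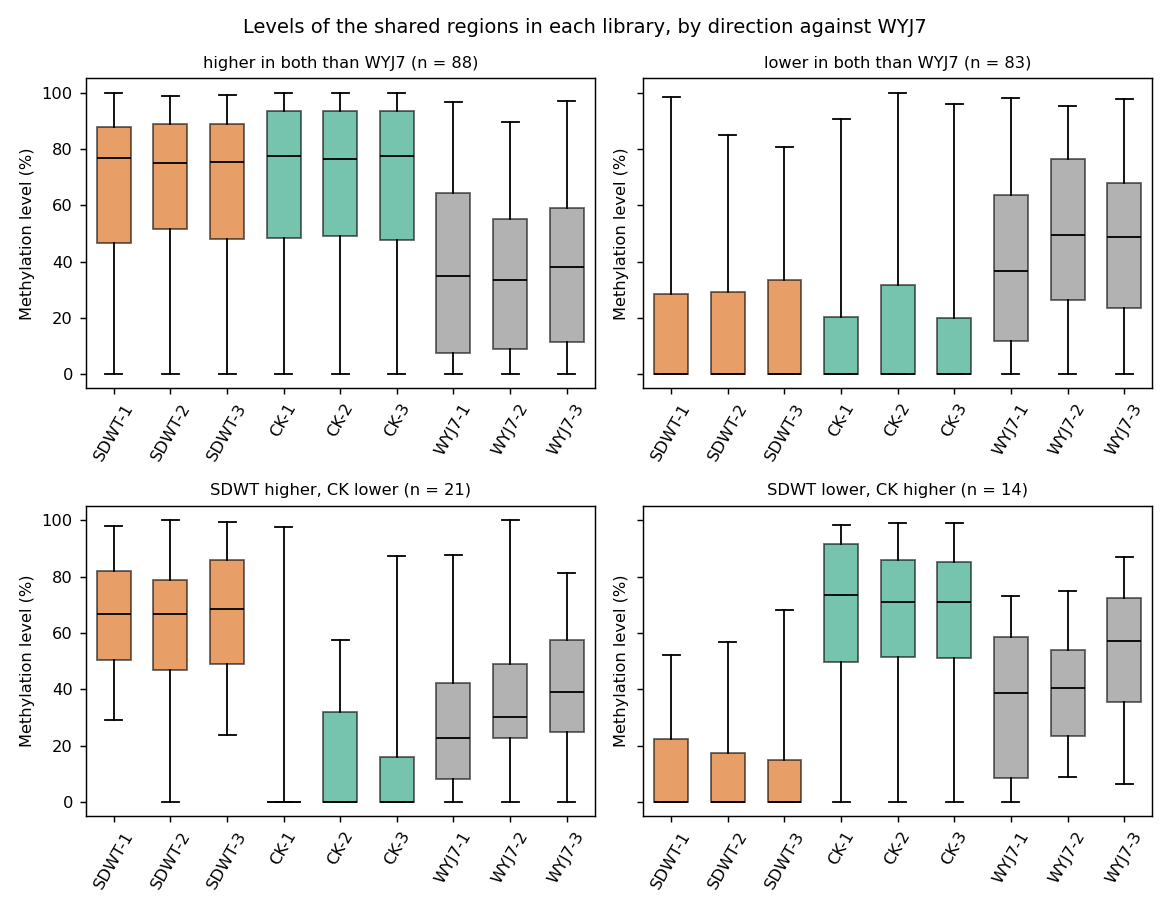
Methylation level in percent of the shared regions in each of the 3 SDWT, 3 CK and 3 WYJ7 libraries, in 4 panels by direction against WYJ7 (88, 83, 21 and 14 regions). Boxes show quartiles and the median, and whiskers the full range. In the panels of common direction the SDWT and CK libraries have similar medians, and in the panels of opposite direction they lie on either side of WYJ7, as the grouping fixes.

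In the 88 regions that were higher in both lines, the mean level was 67.7%, 66.6% and 67.7% in the SDWT libraries. It was 68.3%, 68.8% and 68.4% in the CK libraries, and 37.9%, 34.2% and 36.1% in the WYJ7 libraries. The means of SDWT and CK over these regions were thus close. Both lines were chosen and grouped as higher than the same WYJ7 libraries, so this is not read as a likeness of the lines. The median SDWT minus CK difference was -1.74 percentage points (quartiles -6.20 and 5.92), with SDWT above CK in 41 regions and CK above SDWT in 47. The absolute difference was under 10 points in 57 of the 88 regions and at least 20 points in 6.

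In the 83 regions that were lower in both lines, the mean level was 15.7%, 16.4% and 16.6% in the SDWT libraries, 11.8%, 19.4% and 12.9% in the CK libraries, and 39.2%, 50.02% and 47.9% in the WYJ7 libraries. The highest CK value was that of CK-2, and it lay above the 3 SDWT values. The median level of the group means was 1.78% in SDWT, 0% in CK and 40.0% in WYJ7, and the median SDWT minus CK difference was 0 points (quartiles 0 and 3.52). The absolute difference was under 10 points in 63 regions and at least 20 points in 7.

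Many of these regions were at 0% in both lines. All 3 SDWT libraries were at 0% in 48 of the 207 regions and all 3 CK libraries in 56, and 38 regions were at 0% in all 6. Of the 38, 37 were lower in both lines than in WYJ7, where their mean level ran from 10.4% to 52.3% (median 24.9%). In 21 regions every WYJ7 library was above 0% and every SDWT and CK library was at 0%. Since the depth is unknown, a level of 0% only says that the list gives no methylated read there. It cannot be told apart from a lack of counted reads, and the region at 0% in all 9 libraries was still in both lists.

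Within the 207 regions, which were chosen for a difference from WYJ7, values of the lines were more often at the ends of the scale than those of WYJ7. Of the single library values in SDWT, 29.1% were 0% and 42.5% lay between 20% and 80%. In CK 35.4% were 0% and 36.1% lay between 20% and 80%. In WYJ7 12.7% were 0% and 60.9% lay between these levels. The contrast at 0% was not seen in the whole SDWT list, where 19.1% of the SDWT values and 19.8% of the WYJ7 values were 0%. In the whole CK list 16.5% of the CK values and 10.4% of the WYJ7 values were 0%. At the upper end, 10.8% of the SDWT values, 17.9% of the CK values and 4.51% of the WYJ7 values were at least 90%. All SDWT libraries were at least 90% in 6 regions and all CK libraries in 19, and 4 regions were at least 90% in all 6 libraries. In the whole lists the order at this end was turned for CK, with 9.57% of the CK values and 24.8% of the WYJ7 values at or above 90%, and was close for SDWT, with 9.15% of the SDWT values and 9.48% of the WYJ7 values.

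**Figure D2:**
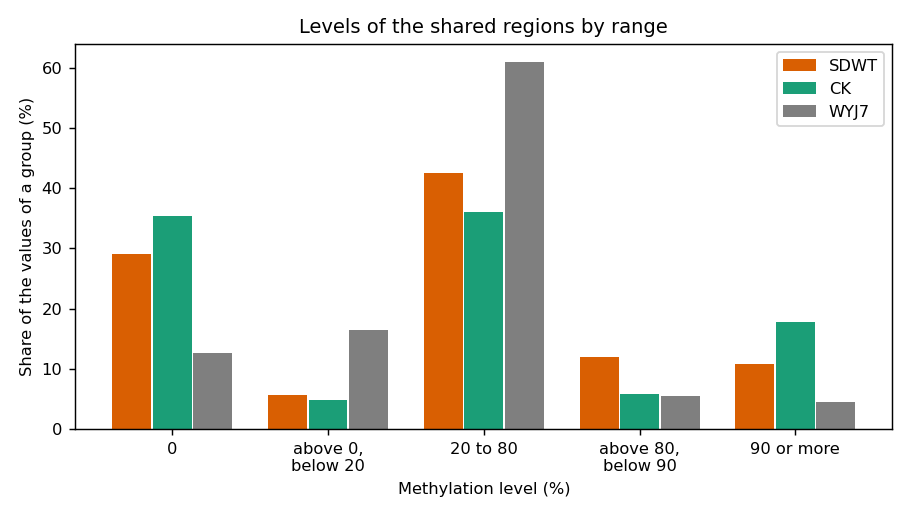
Share of the library values of SDWT, CK and WYJ7 (bars, percent of 3 libraries in 207 regions) in 5 ranges of the methylation level in percent. Values of 0% made up 29.1% in SDWT, 35.4% in CK and 12.7% in WYJ7, and values between 20% and 80% made up 42.5%, 36.1% and 60.9%.

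The 22 regions with at least 5 CpGs held both close and distant levels. Common direction made up 77.3% of them, and in 6 (27.3%) the SDWT and CK libraries did not overlap and their means differed by at least 20 points, against 17.4% of all 207 regions. Of these 6, 5 had opposite directions against WYJ7. The 4 regions with the most CpGs, with ties at 7 CpGs taken by position, follow, and a region with 7 CpGs in OS08G0518300 is given with those of opposite direction. Upstream of EPlOSAG00000031330 (chr2:8965673-8965715), where the lists gave 10 CpGs for SDWT and 8 for CK, the level was 0% in all 3 SDWT and all 3 CK libraries, and 0%, 21.97% and 52.6% in WYJ7. All line libraries were equal here, while the WYJ7 libraries ranged widely. Upstream of OS07G0184500 (chr7:4466561-4466572, 8 CpGs) the level was 87.1%, 90.9% and 96.8% in SDWT. It was 77.5%, 89.2% and 92.5% in CK and 74.8%, 48.6% and 70.8% in WYJ7. SDWT and CK overlapped and every library of both lines was above every WYJ7 library. Upstream of OS09G0520000 (chr9:20304494-20304563, 8 CpGs) SDWT had 38.5%, 44.2% and 72.7%, CK had 34.0%, 59.4% and 46.7%, and WYJ7 had 42.1%, 7.71% and 44.2%. All 3 groups overlapped there, and the low mean of WYJ7 came from WYJ7-2. Upstream of OS01G0648600 (chr1:26169657-26169694, 7 CpGs) SDWT had 4.98%, 19.5% and 2.27%, CK had 1.96%, 44.8% and 4.78%, and WYJ7 had 16.2%, 42.0% and 35.7%. Here CK-2 was above all WYJ7 libraries, and CK-1 and CK-3 were near SDWT.

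Regions with at least 5 CpGs were also ranked by the sum of the SDs of SDWT and CK and the absolute difference of their means. By this measure the closest match among regions higher in both lines was upstream of OS06G0479400 (chr6:16247805-16247819). The levels were 86.1%, 94.3% and 90.8% in SDWT and 94.4%, 93.3% and 88.4% in CK, and 86.2%, 69.0% and 55.1% in WYJ7. The regions upstream of EPlOSAG00000033768 (chr2:24107126-24107144) and EPlOSAG00000015754 (chr7:23718468-23718497) were likewise high in both lines, with SDWT minus CK differences of -2.20 and 6.01 points. Among regions lower in both lines, SDWT had 2.33%, 0% and 0% and CK had 0% in each library at chr11:20608142-20608198, which has no gene, where WYJ7 had 24.5%, 11.0% and 21.7%. Upstream of OS07G0166300 (chr7:3572764-3572819) SDWT had 0%, 10.2% and 0%, CK had 0% in each library, and WYJ7 had 19.4%, 30.0% and 29.7%. At chr6:20759886-20759904, also without a gene, the SDWT minus CK difference was 7.53 points. SDWT and CK overlapped in each of the 6 regions. The regions were chosen for close levels, so nothing is read from this.

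Next, SDWT was set against CK region by region. The 3 SDWT and the 3 CK libraries did not overlap, and their means differed by at least 20 points, in 36 of the 207 regions (17.4%). SDWT was higher in 21 of these (10.1% of all regions) and CK in 15 (7.25%). Without a minimum difference there were 46 such regions (22.2%). An exact permutation test of 3 libraries against 3 cannot give a p under 0.1, so no single region could pass a threshold of 0.05. In regions picked for a lack of overlap the p is always 0.1. The p given for such regions below is therefore no support for a difference. Of the 36 regions, 31 had opposite directions against WYJ7, where a gap between the lines follows from the grouping, and 5 had the same direction. These 5 were 2.92% of the 171 regions of common direction. In the 168 overlapping pairs that were not identical, 25.6% were separated by the same rule. There the level of each line came from its own interval, so this share is not compared with the 17.4%. Without CK-2 the count was 53 of 207 regions, with 10 in the regions higher in both lines and 7 in those lower in both, which then had to clear 2 CK libraries in place of 3.

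**Figure D3:**
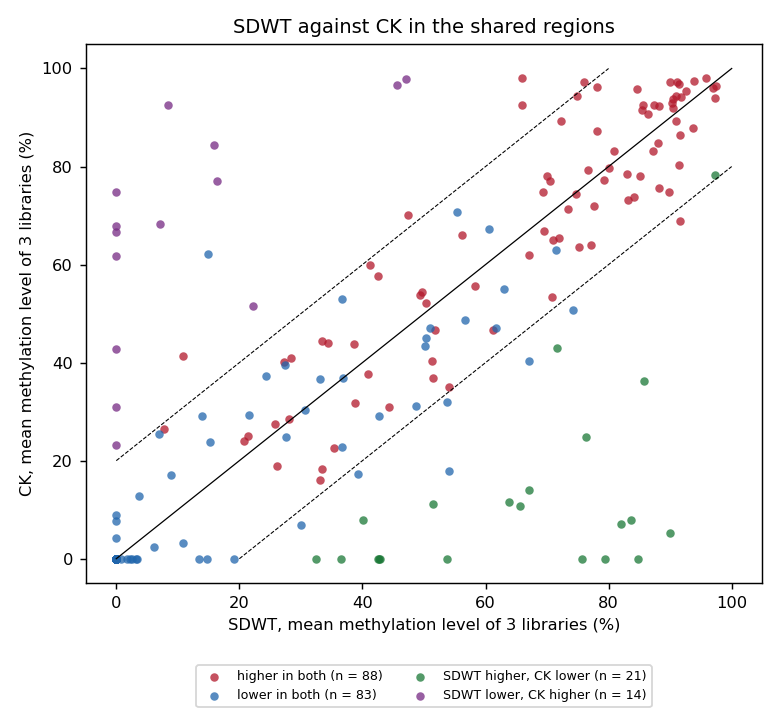
Mean methylation level of the 3 SDWT libraries (x axis, percent) and of the 3 CK libraries (y axis, percent) in the shared regions, colored by direction against WYJ7 for 88, 83, 21 and 14 regions. The solid line marks equal levels and the dashed lines a difference of 20 points. Of the regions of common direction 13 lie outside the dashed lines, and of the 35 of opposite direction 34 do.

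In the regions higher in both lines, 4 were separated by at least 20 points. Upstream of OS07G0144500 (chr7:2255972-2255981, 3 CpGs) the level was 92.4%, 91.6% and 91.0% in SDWT and 61.5%, 72.3% and 72.8% in CK. In WYJ7 it was 0%, 6.67% and 11.4%. SDWT was 22.8 points above CK (two-sided exact permutation test, p = 0.1, n = 3 each), and all libraries of both lines were far above WYJ7. Upstream of OS06G0727700 (chr6:30966938-30966949, 3 CpGs) SDWT had 76.7%, 74.2% and 77.1%, CK had 97.1%, 97.2% and 97.7%, and WYJ7 had 50%, 58.8% and 62.9%. The 3 groups did not overlap here, with SDWT between WYJ7 and CK and 21.3 points below CK in mean (difference -21.3, same exact test, p = 0.1). At chr2:1246264-1246303 (no gene, 3 CpGs) SDWT had 64.6%, 54.4% and 78.9%, CK had 100.0%, 96.7% and 97.6%, and WYJ7 had 48.2%, 37.8% and 22.6%. SDWT was again between WYJ7 and CK, with a difference of -32.2 points from CK (same exact test, p = 0.1). Upstream of OS06G0496400 (chr6:17348594-17348623) the difference was -26.6 points, but the SDWT libraries lay within the range of WYJ7. The fifth region by size, chr4:16674331-16674346 (no gene), differed by 17.3 points, with SDWT at 62.3%, 81.1% and 68.9% and CK at 45.8%, 59.7% and 54.8%.

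In the regions lower in both lines, the SDWT and CK libraries did not overlap in 4 regions, and 1 of them was separated by at least 20 points. This was chr9:12753385-12753398 (no gene, 5 CpGs), with 27.8%, 28.9% and 33.3% in SDWT, 20.5%, 0% and 0% in CK and 38.2%, 67.9% and 59.0% in WYJ7. The difference of 23.2 points had CK farther from WYJ7 than SDWT (exact permutation test, p = 0.1, n = 3 each). Upstream of OS05G0298300 (chr5:13313713-13313725) SDWT was 13.9 points above CK. Upstream of OS05G0428000 (chr5:20986472-20986478) and of EPlOSAG00000031289 (chr12:17921060-17921106) SDWT was below CK, with differences of -12.9 and -12.1 points. In these 3 regions both lines were at intermediate levels and below every WYJ7 library.

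The regions of opposite direction held the largest differences. In the 21 regions higher in SDWT and lower in CK, the mean level was 66.0%, 62.4% and 66.7% in the SDWT libraries, 10.6%, 14.4% and 11.8% in the CK libraries and 28.4%, 35.6% and 41.2% in the WYJ7 libraries. The median SDWT minus CK difference was 51.4 points (quartiles 40.3 and 74.9), and 19 of the 21 regions were separated by at least 20 points. In the 14 regions lower in SDWT and higher in CK, the mean level was 12.0%, 10.7% and 12.2% in SDWT, 67.1%, 67.1% and 66.3% in CK and 35.8%, 41.1% and 53.3% in WYJ7. The median difference was -60.8 points (quartiles -67.5 and -44.8), and 12 of the 14 were separated. Of the 21 regions 9 were upstream of a gene, 6 in introns and 6 at no gene. Of the 14 regions 5 were upstream, 2 in exons and 7 at no gene.

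**Figure D4:**
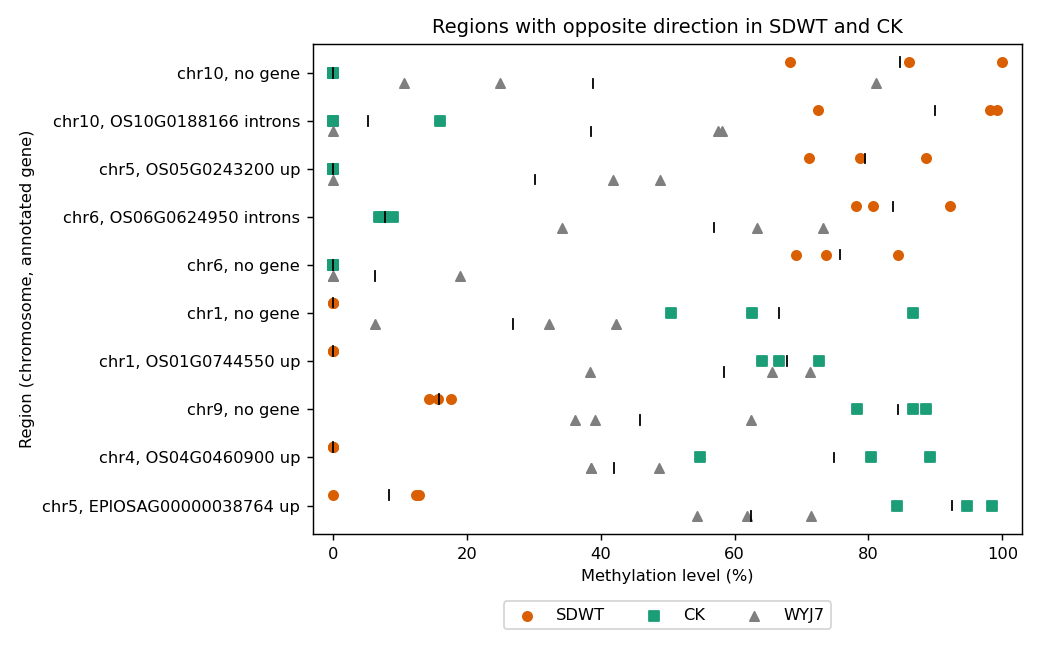
Methylation level in percent in each SDWT (circles), CK (squares) and WYJ7 (triangles) library, with the mean as a vertical bar, for the 5 regions with the largest SDWT minus CK difference in each of the opposite directions. The SDWT and CK libraries do not overlap in any of the 10 regions, with differences between -84.0 and 84.8 points.

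The largest difference was at chr10:14598250-14598267 (no gene, 3 CpGs), with 86.0%, 100.0% and 68.3% in SDWT and 0% in each CK library (difference 84.8 points, two-sided exact permutation test, p = 0.1, n = 3 each). WYJ7 had 10.7%, 25% and 81.1% and overlapped SDWT there. In an intron of OS10G0188166 (chr10:6089443-6089447) SDWT had 98.1%, 72.4% and 99.2%, CK had 0%, 0% and 16.0%, and WYJ7 had 0%, 58.2% and 57.6%. WYJ7-1 was at the CK level in this region, and the other WYJ7 libraries were between the lines. Upstream of OS05G0243200 (chr5:8696698-8696730, 5 CpGs) SDWT had 88.5%, 78.7% and 71.2%, CK had 0% in each library, and WYJ7 had 0%, 48.9% and 41.9%. At chr6:4773779-4773822 (no gene, 6 CpGs) SDWT had 73.6%, 84.3% and 69.2%, CK had 0% in each library, and WYJ7 had 19.1%, 0% and 0%. Thus CK overlapped WYJ7 in this region, and the contrast rests on SDWT.

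In an intron of OS06G0624950 (chr6:25161924-25161941) the level was 80.7%, 78.2% and 92.2% in SDWT. It was 7.50%, 8.97% and 6.92% in CK and 63.3%, 73.2% and 34.2% in WYJ7. The 3 groups did not overlap, with WYJ7 between the lines, and the SDWT minus CK difference was 75.9 points (exact permutation test, p = 0.1, n = 3 each). At more CpGs, introns of OS02G0227900 (chr2:7182575-7182607, 6 CpGs) and OS08G0518300 (chr8:25728091-25728135, 7 CpGs) were also higher in SDWT, by 40.3 and 42.6 points. At OS02G0227900 CK-2 had 33.3% and CK-1 and CK-3 had 0%, with 50.3%, 47.0% and 57.0% in SDWT. At OS08G0518300 the CK libraries were all at 0% and SDWT had 29.2%, 62.5% and 36.1%.

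In the reverse direction, the region upstream of EPlOSAG00000038764 (chr5:2017656-2017667, 4 CpGs) had 12.8%, 0% and 12.5% in SDWT, 98.4%, 84.3% and 94.7% in CK and 61.9%, 54.4% and 71.4% in WYJ7. The groups did not overlap and the difference was -84.0 points (exact permutation test, p = 0.1 as fixed by the lack of overlap, n = 3 each). At chr9:14795565-14795581 (no gene, 6 CpGs) SDWT had 14.4%, 17.7% and 15.7%, CK had 88.6%, 86.6% and 78.2%, and WYJ7 had 39.1%, 36.2% and 62.4%. Here too each library of WYJ7 was between the lines, and the replicates of SDWT were close. Upstream of OS04G0460900 (chr4:23005575-23005596) SDWT was at 0% in each library, CK had 89.3%, 54.8% and 80.3%, and WYJ7 had 48.7%, 38.5% and 38.6%. Upstream of OS01G0744550 (chr1:31119899-31119905) SDWT was at 0%, CK had 64.2%, 72.7% and 66.7%, and WYJ7 had 38.5%, 65.6% and 71.3%. In this region CK overlapped WYJ7, and SDWT alone was apart. At chr1:32466539-32466553 (no gene) SDWT was at 0%, CK had 62.7%, 50.5% and 86.7%, and WYJ7 had 32.4%, 42.3% and 6.35%.

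How far each line was clear of WYJ7 was described in the same way. The 3 SDWT libraries did not overlap WYJ7 and differed by at least 20 points in mean in 120 of the 207 regions, against 59.9% of the whole SDWT list. For CK the number was 107, against 54.2% of the whole CK list. As the lists were called from these contrasts, nothing is read from the shares. Both lines were clear of WYJ7 in 83 regions and neither was in 63. Of the 83, the direction was the same in 77 and opposite in 6. The mean level was less than 20 points from WYJ7 in 47 regions for SDWT and 52 for CK. The 135 regions with at least 20 points in both lines held 120 of common and 15 of opposite direction. The median absolute difference from WYJ7 was 29.2 points in SDWT and 28.7 points in CK. SDWT was the line farther from WYJ7 in 81 regions and CK in 88.

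The replicates of the groups differed in spread. The median SD of the 3 libraries was 6.50 points in SDWT, 7.22 points in CK and 12.6 points in WYJ7, against 8.03 in SDWT over the whole SDWT list and 14.7 in CK over the whole CK list. WYJ7 had 8.58 and 5.30 points in these lists. Levels at 0% have no spread, and in the 67 regions where the means of SDWT and CK both lay between 20% and 80% the median SD was 10.5 points in SDWT, 18.7 in CK and 8.11 in WYJ7. Between pairs of libraries in these 67 regions, the median SD was 7.66 to 9.55 points for the pairs of SDWT. It was 6.76 points for CK-1 and CK-3, and 14.5 and 19.7 points for the pairs that held CK-2. CK-2 was nearer to the WYJ7 mean than CK-1 and CK-3 in 26 of the 40 regions where it stood alone, and on the other side of the WYJ7 mean in 21. SDWT was closer to CK-1 and CK-3 than to CK-2 in 25 of them. An example, chosen after its values were seen, is chr11:23222448-23222474, upstream of OS11G0603000, where SDWT had 14.2%, 10.5% and 20.1%, CK had 90.5%, 0% and 96.0%, and WYJ7 had 42.3%, 86.6% and 88.8%. It counts as lower in both lines only through CK-2.

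Between single libraries, the mean absolute difference over the 207 regions was 9.47 to 11.1 points among the SDWT libraries. Among the CK libraries CK-1 and CK-3 differed by 7.70 points, and CK-2 was 17.4 points from CK-1 and 18.5 points from CK-3. SDWT and CK libraries were 18.8 to 21.4 points apart, and WYJ7 libraries were 14.1 to 20.9 points from each other. The distance of SDWT to WYJ7 libraries was 27.9 to 33.4 points, and that of CK to WYJ7 libraries 28.5 to 34.9 points. Each SDWT library was thus nearer to every other SDWT library than to any CK library, whereas CK-2 was about as far from the other CK libraries as these were from SDWT. In the regions of opposite direction, where the grouping sets a gap, SDWT and CK libraries were 47.9 to 56.5 points apart. In regions higher in both lines, SDWT libraries were 12.4 to 13.3 points from each other and 13.6 to 19.5 from CK libraries. In regions lower in both, these ranges were 6.37 to 8.45 and 8.65 to 12.8 points. The larger distances to WYJ7 are set by the choice of the regions.

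**Figure D5:**
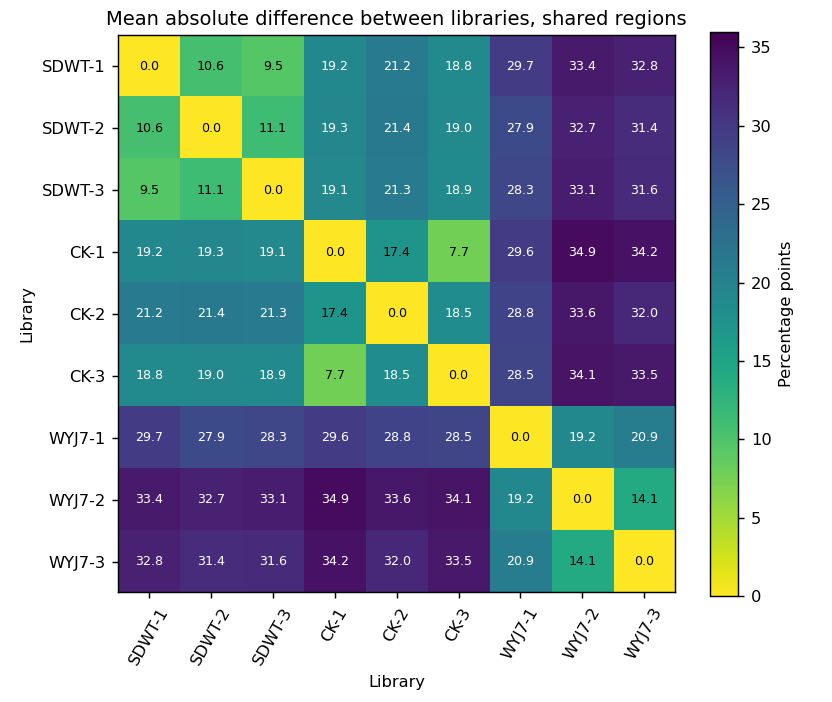
Mean absolute difference in methylation level between each pair of libraries over the 207 shared regions, in percentage points (color and printed value). SDWT libraries differ by 9.47 to 11.1 points, CK-1 and CK-3 by 7.70 points, and SDWT and CK libraries by 18.8 to 21.4 points.

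The pOsNAR2.1-OsNAR2.1 line is a T4 line that carries the transgene and comes from the same T0 plant as SDWT. It had an identical region in its own list for 63 of the 207 regions (30.4%). The matching share over the whole SDWT or CK list was not computed, so nothing is read from this count. This list too was made against the same WYJ7 libraries. Of the 53 regions with a common direction in SDWT and CK, pOsNAR2.1-OsNAR2.1 had this direction in 45 and the opposite one in 8. Of the 10 with opposite directions, it was on the side of SDWT in 6 and on that of CK in 4. It was higher than WYJ7 in all of these 6, in 3 of these 4, and in 7 of the 8 above. The paper reports more DMRs with a higher than with a lower level in this line. The sides are therefore not read as a likeness to SDWT or CK. Chosen after their values were seen, 2 regions show the side of SDWT and that of CK. Upstream of OS03G0353500 (chr3:13289179-13289210) SDWT had 82.1%, 83.9% and 80.2% and pOsNAR2.1-OsNAR2.1 had 84.7%, 82.2% and 78.6%, whereas CK had 0%, 21.4% and 0% and WYJ7 had 36.5%, 35.2% and 54.4%. Upstream of EPlOSAG00000038764, where SDWT was low, pOsNAR2.1-OsNAR2.1 had 93.2%, 96.1% and 93.3%, at the level of CK.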

How the data were processed

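The authors aligned WGBS reads to IRGSP-1.0 with Bismark 0.9.0, and kept uniquely mapped reads and cytosines of sufficient depth. Differential regions between a line and WYJ7 came from methylKit followed by eDMR. In the deposited lists the authors give the level of each region in percent in each library, and the authors' region width and number of CpGs (other values). Whether levels were normalized between libraries is not stated. Their columns of difference, p-value, q-value and direction label were not used. Only called regions are listed, and depth per region is unknown.

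Identical regions of the SDWT and CK lists were joined, and the direction was taken from mean levels, not from the authors' label as first planned. The members, gene lists and tests were chosen with earlier results of these data known. Lists of genes by product could not be applied. Single regions were compared with two-sided exact permutation tests (3 libraries against 3, smallest p 0.1). These were run only in regions without overlap of the libraries, where the p is fixed at this smallest value. Nothing in the labels says that replicates of SDWT came from separate plants, so the tests measure only the spread between libraries. Named were, for each direction, the 5 regions with the largest SDWT minus CK difference without overlap, the 4 regions with at least 5 CpGs and the smallest sum of both SDs and the absolute difference, the 4 regions with most CpGs, and any direction with at most 8 regions. Alternatives were other overlaps, thresholds and left-out libraries. MeDIP-seq samples (3) were not analysed here. Tests were run in scipy 1.17.1 with numpy 2.4.6, tables were handled in pandas 2.3.3 under Python 3.11.15, plots were drawn in matplotlib 3.10.9, and functions were tested on simulated data.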

Additional observations from a re-analysis of the deposited data

Results flagged for a closer look

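In 26 of the 207 regions every SDWT library lay on one side of the WYJ7 mean and every CK library on the other. This can occur only in the 35 regions of opposite direction, where the grouping already puts the means on either side. The difference between the lines could not pass a threshold with 3 libraries each, so it is given as a description and was not tested further. Of the regions named above, 12 were of this kind. SDWT was higher at chr10:14598250-14598267 by 84.8 points, in the intron of OS10G0188166 by 84.6 points, upstream of OS05G0243200 by 79.5 points, in the intron of OS06G0624950 by 75.9 points and at chr6:4773779-4773822 by 75.7 points. It was also higher in the introns of OS08G0518300 and OS02G0227900, by 42.6 and 40.3 points. SDWT was lower, with SDWT minus CK differences of -84.0 points upstream of EPlOSAG00000038764, -74.8 points upstream of OS04G0460900 and -68.6 points at chr9:14795565-14795581. The difference was -67.8 points upstream of OS01G0744550 and -66.6 points at chr1:32466539-32466553. The differences of the lines from WYJ7 had chosen the regions.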

How the results depend on the processing

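With an overlap of at least 1 bp there were 375 pairs of regions, in which each line had the level of its own interval. The number of shared regions was 63 with mean levels at least 30 points from WYJ7 in both lines. The share of common direction was 88.9% with at least 20 points from WYJ7 in both lines, and lay between 80.7% and 83.6% when a library was left out. The 36 separated regions (17.4% of 207) became 79 of 375 with an overlap of 1 bp (21.1%), 6 of 22 with at least 5 CpGs per region (27.3%) and 18 of 135 with at least 20 points from WYJ7 in both lines (13.3%), and 39 to 53 of 207 when a SDWT or CK library was left out. The median SDWT minus CK difference in regions higher in both lines was -0.90 points with the median of 3 libraries, 0.13 with an overlap of 1 bp, 1.73 with at least 5 CpGs and -2.28 to 0.016 with a library left out. In regions higher in SDWT and lower in CK it was 57.2, 51.1 and 59.2 points under these settings, 75.4 with at least 20 points from WYJ7, and 46.1 to 52.4 with a library left out. In those lower in SDWT it was -58.7, -51.0 and -68.6 points, -66.6 with at least 20 points from WYJ7, and -61.3 to -53.3. The cause of these shifts was not tested. The median SD of SDWT minus that of CK was -0.72 points, -8.20 where both means lay between 20% and 80%, and -3.41 to 4.44 with a library left out. It was above 0 without any one CK library (0.51 without CK-1, 1.503 without CK-3 and 4.44 without CK-2), when 2 CK libraries were set against 3 of SDWT.

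Replicate numbers did not pair the libraries, with correlations of their deviations of -0.02, 0.02 and 0.07. Taking same-numbered pairs as a replicate block gave 41 separated regions. In the 21 named regions without overlap the choice of the regions fixed the direction under these settings. The settings with a minimum distance from WYJ7, the pairs of libraries and the shares without a library were chosen after seeing the data. Thresholds on the authors' difference and q-value were not run, as these columns were not used, nor was the authors' sign, and no region had 10 CpGs in both lists.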
